A study of Mus musculus with 16 samples.

Results

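Open chromatin was examined at 10 genes that define the epithelial state, Cdh1, Epcam, Krt8, Krt18, Krt19, Cldn4, Cldn7, Grhl2, Esrp1 and Ovol1, in Smad4-controlled mouse pancreatic cancer cells growing in the pancreas, the liver or the lungs. A peak was given to the protein-coding gene whose transcription start site lay nearest to the peak midpoint, within 100 kb. This rule placed 97 of the 136630 nuclear peaks of the study's ATAC-seq atlas at the 10 loci, with 27 at Grhl2, 24 at Epcam, 10 at Cdh1, 8 at Cldn4, 6 each at Krt8, Krt19 and Esrp1, 4 at Krt18, and 3 each at Cldn7 and Ovol1. Peaks are named by gene and by distance from the start site, with a minus sign for upstream. Krt8 and Krt18 are neighbours on chromosome 15, so their peaks are not independent loci. Grhl2 lies far from them on the same chromosome, and Cldn7 and Krt19 share chromosome 11.

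ATAC-seq counts the cuts that a transposase makes in accessible DNA. The 16 samples were sorted tumour cells from transplants of KC-shSmad4 lines, which derive from male mice in which Ptf1a-Cre, a pancreas-specific driver, activated a reverse tetracycline transactivator with the mKate2 reporter, together with a doxycycline-inducible shRNA against Smad4. Every group shares these alleles and female athymic nude hosts, which lack T cells. Doxycycline kept Smad4 off (groups Panc_OFF and Lung_OFF with 3 samples each, and Liv_OFF with 2), and its withdrawal restored Smad4 for 14 days (Panc_ON and Lung_ON with 3 each, and Liv_ON with 2; the lung columns of the deposited table carry a mark for a day later). Organ cannot be told apart from route, cell number and time: 100000 cells went into the pancreas with 4 weeks of growth before withdrawal, 400000 into the spleen to seed the liver with 5 weeks, and 250000 into the tail vein to seed the lungs with 6 weeks. For each sample, 60000 mKate2-positive cells were collected, and which of the independent lines gave which sample is not given in the sources used here.

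The genes fall into a few roles. Cdh1 encodes E-cadherin, the adhesion receptor of adherens junctions, and Krt8, Krt18 and Krt19 encode keratins of simple and ductal epithelia. Epcam encodes a surface glycoprotein used as an epithelial marker, and Cldn4 and Cldn7 encode claudins of tight junctions. Grhl2 is a transcription factor that activates junction genes, Esrp1 an RNA-binding protein that sets epithelial splicing, and Ovol1 a zinc-finger factor that represses mesenchymal genes. SMAD4 is the shared partner of the receptor-activated SMADs in TGFβ signalling, a pathway known for lowering epithelial genes and for growth arrest, and it is often lost in pancreatic cancer.

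Stretches of DNA at these loci, picked for their liver differences, are printed first, from mm10 (GRCm38.p6). Whether they regulate the genes was not tested. Promoters, 250 bases up to the start site, were read from RefSeq for 5 of the 10 genes with an entry (Epcam, Krt8, Krt18, Cldn4 and Cldn7), and those of Epcam and Cldn4 are shown because they lie within or beside start-site peaks that were several-fold higher in the liver. Capitals mark matches, on either strand, to the E-box CAGGTG, the KLF-like CCNCNCCC or the AP-1 motif TGANTCA.
Epcam promoter, chr17:87635729-87635978, plus strand: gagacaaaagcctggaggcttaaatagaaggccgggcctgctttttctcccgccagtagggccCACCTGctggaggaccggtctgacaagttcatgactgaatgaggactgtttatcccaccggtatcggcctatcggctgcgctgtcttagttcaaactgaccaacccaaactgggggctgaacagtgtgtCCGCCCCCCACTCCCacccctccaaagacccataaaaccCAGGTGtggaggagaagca
Cldn4 promoter, chr5:134946935-134947184, minus strand: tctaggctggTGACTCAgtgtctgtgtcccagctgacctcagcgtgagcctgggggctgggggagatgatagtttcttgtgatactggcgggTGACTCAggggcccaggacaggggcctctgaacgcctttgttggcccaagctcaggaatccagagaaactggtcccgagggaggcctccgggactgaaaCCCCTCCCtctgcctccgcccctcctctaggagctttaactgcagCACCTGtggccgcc
The Epcam stretch held E-box matches at positions -187 and -19 from the start site and overlapping KLF-like matches at -58 and -51. The Cldn4 stretch held AP-1 matches at -240 and -158, a KLF-like match at -59 and an E-box match at -14. Of 32851 promoters of the same length, 17.2% held the E-box letters, 45.9% the KLF-like letters and 6.75% the AP-1 letters. These are matches of letters and no measurement of binding.

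Beyond the promoters, 4 distal peaks are shown by their central 200 bases on the plus strand, the first pair because they were far higher in the liver and the second pair because they ran the opposite way. Capitals here mark any match to 7 motifs: those above, GRHL (AACCNGTT), RUNX (TGTGGTT), HNF1 (GTTAAT) and TEAD (GGAATG).
Epcam -7.6 kb, chr17:87628308-87628507: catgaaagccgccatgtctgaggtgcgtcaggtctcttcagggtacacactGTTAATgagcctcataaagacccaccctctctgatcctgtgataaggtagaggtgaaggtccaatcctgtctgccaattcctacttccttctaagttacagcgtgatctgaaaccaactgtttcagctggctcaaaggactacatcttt
Grhl2 -34.9 kb, chr15:37198048-37198247: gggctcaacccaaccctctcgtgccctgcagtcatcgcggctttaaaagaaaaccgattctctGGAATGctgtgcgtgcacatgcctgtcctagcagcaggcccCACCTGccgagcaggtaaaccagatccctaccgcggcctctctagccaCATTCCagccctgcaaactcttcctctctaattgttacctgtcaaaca
Grhl2 -17.5 kb, chr15:37215468-37215667: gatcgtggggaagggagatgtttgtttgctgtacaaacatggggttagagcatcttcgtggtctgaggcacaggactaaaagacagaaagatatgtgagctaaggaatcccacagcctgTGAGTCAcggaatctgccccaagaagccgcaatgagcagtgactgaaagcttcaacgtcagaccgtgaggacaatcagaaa
Krt8 -6.4 kb, chr15:102010786-102010985: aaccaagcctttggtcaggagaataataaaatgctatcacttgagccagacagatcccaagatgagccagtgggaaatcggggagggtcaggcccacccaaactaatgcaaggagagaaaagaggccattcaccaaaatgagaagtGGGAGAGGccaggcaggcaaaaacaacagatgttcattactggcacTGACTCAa
The Epcam -7.6 kb window held an HNF1 match, and the Grhl2 -34.9 kb window held an E-box match between TEAD matches. Both windows that were lower in the liver held an AP-1 match, and the Krt8 window also held a KLF-like match. Over the central 200 bases of all 97 peaks, AP-1 letters occurred in 16 peaks (16.5%, against 28.1% of all peaks), KLF-like letters in 29 (29.9% against 20.9%), E-box letters in 15 (15.5% against 13.02%), TEAD letters in 10 (10.3% against 14.5%), HNF1 letters in 4 (4.12% against 7.34%), RUNX letters in 3 (3.09% against 7.91%) and GRHL letters in 2 (2.06% against 1.68%). By annotation, 63 of the 97 peaks were intergenic, 26 intronic, 4 exonic and 4 within 1000 bases of a start site at their midpoint.

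Each library held 22495044 to 37510981 reads in nuclear peaks, and mitochondrial reads were 1.43 to 3.56% of reads in the table. Summed over all 97 peaks, the normalised count, which is the read number divided by the library's size factor, was 28252 to 42374 in the 6 pancreatic samples, 40739 to 58803 in the 6 lung samples and 78366 to 102444 in the 4 liver samples. In this sum the liver samples lay above all others. A few loci with wide peaks dominated it. In Panc_OFF the mean locus sum was 10210 at Krt8 and 8416 at Cdh1, against 316 at Esrp1 and 297 at Ovol1. The sum therefore does not show how open each locus was. At each locus taken alone, the lowest liver sample also lay above every other sample. Peaks at 6 fibroblast marker genes ran the other way, with sums of 7558 to 12963 in the pancreas, 3374 to 6155 in the lungs and 2490 to 4014 in the liver; their part in the results below was not tested. In bulk samples, fewer open cells and less open chromatin per cell cannot be told apart.

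By the peaks covering their start sites, the genes fell into 2 sets of profiles. Grhl2, Esrp1, Ovol1, Epcam, Cldn4 and Cldn7 were far more accessible in the liver than in either other organ, whereas Cdh1 and the keratin genes were widely open everywhere and differed less. Per kb of peak, the mean normalised count in Panc_OFF was 232 at Cdh1, 248 at Krt8, 250.4 at Krt18 and 271 at Krt19, against 12.2 at Grhl2, 72.1 at Esrp1, 72.7 at Cldn4, 94.2 at Ovol1, 119 at Epcam and 157 at Cldn7. In Liv_OFF the same levels spanned only 284 per kb at Grhl2 to 657 per kb at Krt8. The start sites of Cdh1, Krt8 and Krt19 lie in merged peaks 22337, 20973 and 14207 bases wide. That of Grhl2 lies in a peak of 2386 bases, so their values average over unequal lengths of DNA. The start-site peaks of Cdh1 and the keratin genes were all wider than those of the other genes. The 2 sets therefore cannot be told apart from peak width.

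**Figure D1:**
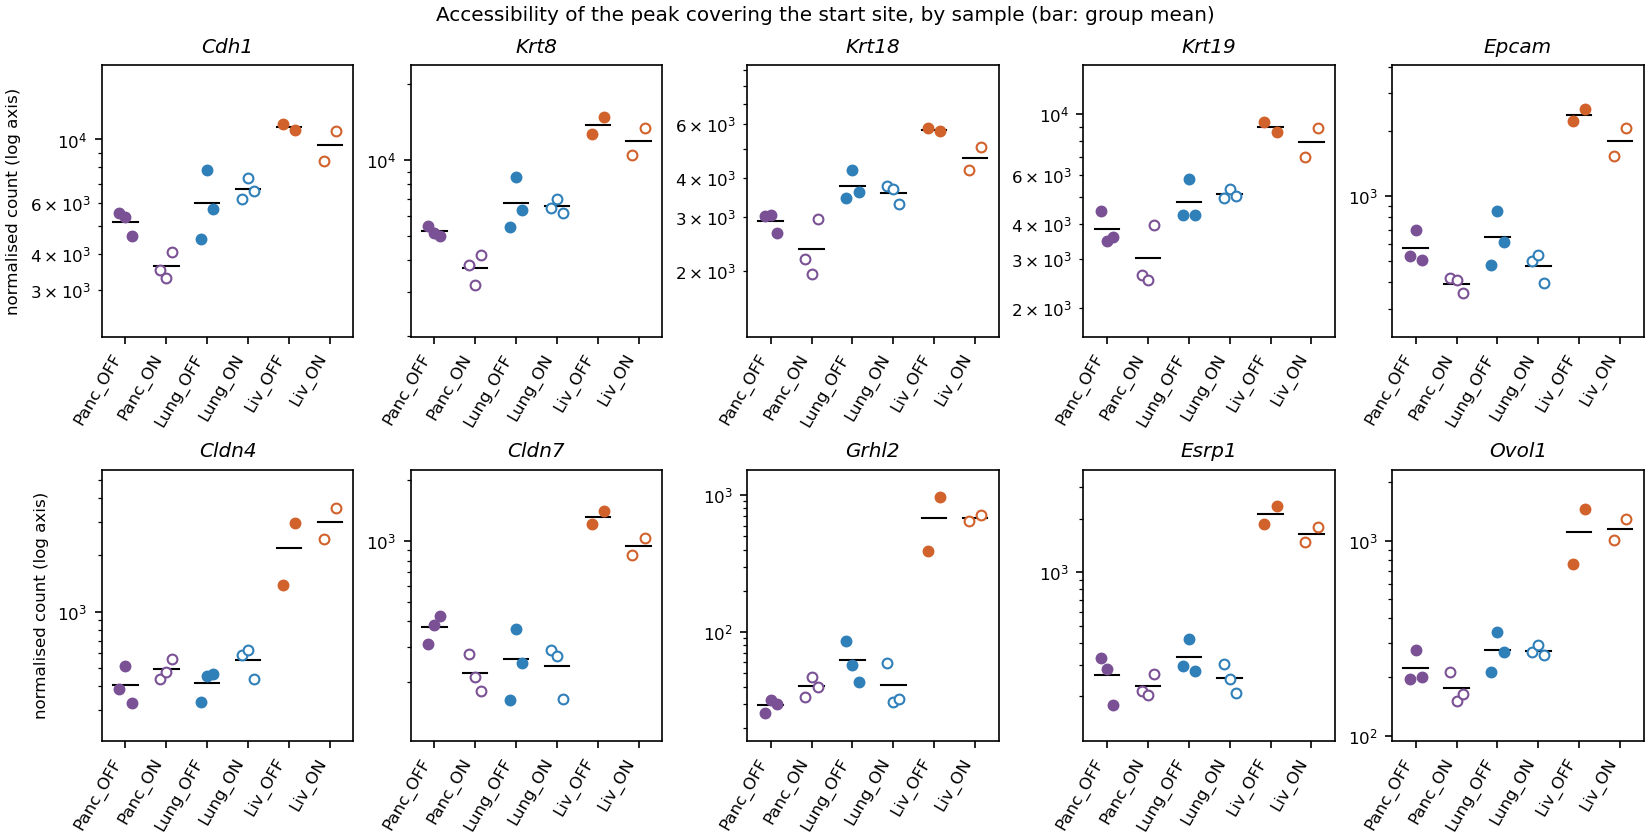
Normalised count (log axis) of the peak covering the start site of each gene in every sample, with pancreas in purple, lungs in blue and liver in orange, filled points for Smad4 off, open points for Smad4 restored and a bar at each group mean. The 4 liver samples sit above the other 12 in each panel but that of Krt18, where Liv_ON replicate 1 and Lung_OFF replicate 2 meet, by a wide gap for Grhl2, Esrp1, Ovol1, Epcam and the claudins and a narrower one for Cdh1, Krt8 and Krt19.

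Grhl2 had the steepest profile. Its start-site peak (chr15:37232345-37234730) had normalised counts of 391 and 963 in Liv_OFF, 85.6, 57.6 and 43.1 in Lung_OFF, and 25.6, 32.2 and 29.6 in Panc_OFF. The groups did not overlap, and the liver mean was 10.9-fold that of the lungs and 23.2-fold that of the pancreas. On the log2(count + 1) scale, Liv_OFF exceeded Lung_OFF by 3.34 ± 0.38 (SE; limma, adjusted p = 2.7e-05) and Panc_OFF by 4.36 ± 0.38 (adjusted p = 4.1e-06). Grhl2 was also the only gene whose start-site peak passed the test between lungs and pancreas with Smad4 off, at 1.02 ± 0.34 (adjusted p = 0.063), a call that was lost without any of 5 of the 6 libraries compared (each but Lung_OFF replicate 3; log2 difference 0.76 to 1.09).

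The Esrp1 start-site peak (chr4:11384926-11388601) counted 1871 and 2367 in Liv_OFF, 296, 424 and 277 in Lung_OFF, and 331, 284 and 179.7 in Panc_OFF. Lungs and pancreas overlapped, while the liver was 6.37-fold above the lungs (2.68 ± 0.25, adjusted p = 9.2e-06). All 6 Esrp1 peaks were higher in the liver than in either organ, with a median log2 difference of 2.97 from the lungs, which was the largest median of the 10 loci. Ovol1 (chr19:5559795-5562164) counted 757 and 1445 in Liv_OFF, 213, 342 and 271 in Lung_OFF, and 196, 274 and 200.03 in Panc_OFF. All 3 Ovol1 peaks were likewise higher in the liver, the start-site peak by 1.95 ± 0.26 over the lungs (adjusted p = 6.9e-05).

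Among the junction and surface genes, Epcam (chr17:87635661-87640505) counted 2244 and 2534 in Liv_OFF, 479.6, 851 and 614 in Lung_OFF, and 529, 698 and 508 in Panc_OFF. Cldn4 (chr5:134942569-134948187) counted 1386 and 2970.4 in Liv_OFF, 331, 453 and 463 in Lung_OFF, and 385, 512 and 328 in Panc_OFF. Cldn7 (chr11:69965040-69967427) counted 1212 and 1410.0 in Liv_OFF, 164, 367 and 249 in Lung_OFF, and 311, 385 and 426 in Panc_OFF. In all 3 genes the liver stood apart while lungs and pancreas overlapped. The excess of the liver over the lungs was 1.92 ± 0.21 for Epcam (adjusted p = 2.2e-05), 2.30 ± 0.28 for Cldn4 (adjusted p = 3.6e-05) and 2.40 ± 0.29 for Cldn7 (adjusted p = 4.0e-05).

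At the wide peaks covering their start sites, Cdh1 and the keratins were called in the same direction with smaller differences. The peak covering the Cdh1 start site (chr8:106602953-106625289) counted 11310.0 and 10785 in Liv_OFF, 4517, 7847 and 5762 in Lung_OFF, and 5554, 5390.2 and 4615 in Panc_OFF, a liver excess over the lungs of 0.91 ± 0.16 (adjusted p = 0.00050). That of Krt8 (chr15:101987115-102008087) counted 12717 and 14859 in Liv_OFF, 5399.6, 8541 and 6316 in Lung_OFF, and 5482, 5122 and 5002 in Panc_OFF, an excess of 1.05 ± 0.15 (adjusted p = 0.00011). Krt19 (chr11:100137765-100151971) exceeded the lungs by 0.91 ± 0.17 (adjusted p = 0.00066) and Krt18 (chr15:102023707-102035300) by 0.62 ± 0.14 (adjusted p = 0.0021). Krt18, the smallest of the 10, fell below the required log2 difference with other scalings and without Lung_OFF replicate 1 (0.55). Quantile normalisation also took Cdh1 to 0.51 and Krt19 to 0.47, below that size. Lung_OFF replicate 2 was the highest lung sample at these 4 peaks, and in no gene did a lung sample with Smad4 off reach the lower Liv_OFF sample. The wide peaks at Cdh1 and Krt8 were taken after their values were seen, since the peaks with the nearest midpoints, Cdh1 -3.8 kb and Krt8 -4.9 kb, were small neighbours. At Cdh1 -3.8 kb the liver exceeded the lungs by 1.07 ± 0.37 (adjusted p = 0.036; not called without Liv_OFF replicate 1, at 0.62, or Lung_OFF replicate 1, at 0.87) and at Krt8 -4.9 kb by 1.68 ± 0.30 (adjusted p = 0.00051).

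Across all 97 peaks with Smad4 off, 74 were higher and 3 lower in the liver than in the lungs, where a call requires a log2 difference of 0.58 or more in size together with an adjusted p no higher than 0.1 (limma, adjusted over all peaks). The background was 22.9% of all nuclear peaks called higher and 26.8% called lower. Each of the 10 genes held peaks called higher, from 3 of 4 at Krt18 and 4 of 8 at Cldn4 to all 6 at Krt19 and Esrp1. The median log2 difference was 1.31 over the 97 peaks and 0.0024 over all peaks. Against the pancreas, 81 were higher and 3 lower (background 26.2% and 32.3%), with a median of 1.71. The 4 liver samples, in both Smad4 states, lay above the other 12 at 67 of the 97 peaks and below them at 1, where the background was 18.2% and 10.1%. By gene this held for 17 of 24 Epcam peaks, 15 of 27 Grhl2 peaks, 6 of 8 Cldn4 peaks and 5 of 6 Krt8 peaks, for every peak of Krt19, Esrp1, Cldn7 and Ovol1, and for 4 of 10 Cdh1 and 2 of 4 Krt18 peaks. The order of group means was liver, then lungs, then pancreas at 74 of the 97 peaks with Smad4 off (background 27.1%), at 71 with Smad4 restored (background 28.8%) and at 63 in both states (background 20%). Non-member peaks within 5 Mb had medians of -0.30 to 0.31 between liver and lungs around the 97 peaks. With that median subtracted, the liver excess at the Krt18 start site fell from 0.62 to 0.30 and was not called.

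**Figure D2:**
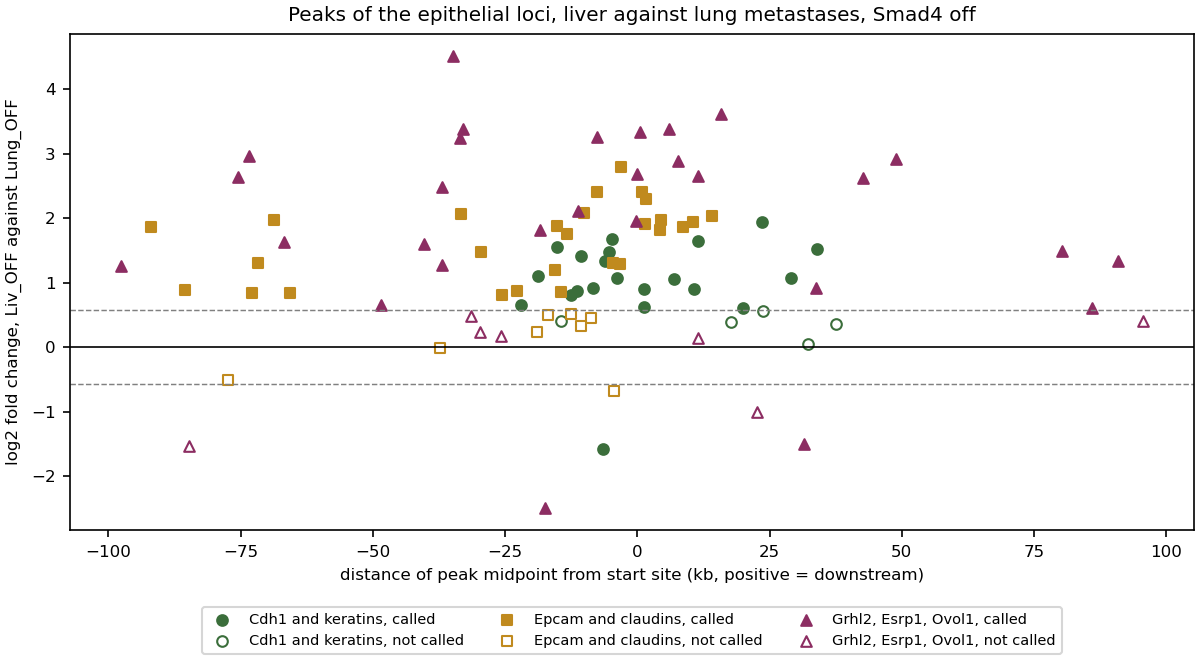
Log2 difference between Liv_OFF and Lung_OFF (vertical axis) for each of the 97 peaks against its distance from the start site in kb (horizontal axis), coloured by gene role, filled where called, with dashed lines at the required size. Called peaks of the regulators reach 4.51 at Grhl2 -34.9 kb, those of Cdh1 and the keratins stay under 2, and the 3 peaks lower in the liver lie at Grhl2 and Krt8.

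The largest liver excess was upstream of Grhl2. The intergenic peak Grhl2 -34.9 kb, whose centre is printed above, counted 181 and 425 in Liv_OFF and 283 and 372 in Liv_ON, against 8.28 to 24.8 in the other 12 samples. Liv_OFF exceeded Lung_OFF by 4.51 ± 0.44 (adjusted p = 1.2e-05), and this peak was thus close to closed outside the liver. Epcam -7.6 kb, singled out after its values were seen, counted 601 and 736 in Liv_OFF, 62.6, 217 and 141 in Lung_OFF, and 72.6, 69.7 and 57.4 in Panc_OFF (liver over lungs 2.41 ± 0.37, adjusted p = 0.00025). Krt8 +23.5 kb, a distal keratin peak, reached 884 and 881 in Liv_OFF against 202 to 292 in Lung_OFF (1.94 ± 0.23, adjusted p = 3.3e-05).

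A few peaks at the same loci were less accessible in the liver. Grhl2 -17.5 kb counted 9.87 and 11.1 in Liv_OFF, 124, 33.7 and 61.2 in Lung_OFF, and 32.5, 40.2 and 33.3 in Panc_OFF, a fall of 2.49 on the log2 scale against the lungs (SE 0.49, adjusted p = 0.00086) and of 1.65 against the pancreas (SE 0.49, adjusted p = 0.0087). Krt8 -6.4 kb, between Krt8 and Krt18, counted 34.6 and 23.7 in Liv_OFF, 71.8, 53.3 and 175 in Lung_OFF, and 76.9, 67.9 and 113 in Panc_OFF, and was called lower in the liver in both comparisons and in both Smad4 states. The others were Grhl2 +31.5 kb against the lungs (-1.51 ± 0.71, adjusted p = 0.090), in which Lung_OFF replicate 1 was the high sample, at 94.8 against 18.5 and 21.5, and without which the call was lost (-0.78), and Grhl2 +22.7 kb against the pancreas (-1.53 ± 0.59, adjusted p = 0.036; not called without Liv_OFF replicate 2, at -1.16). Without Liv_OFF replicate 1 the Grhl2 +31.5 kb call was also lost, at -0.97. That call was lost too with quantile normalisation (-1.19), with GC correction (-1.37) and with only the compared groups fitted (-1.51). Subtracting the median of other peaks within 5 Mb also removed it (-1.24). The Grhl2 +22.7 kb call was lost with quantile normalisation (-1.01) and with that median subtracted (-1.10). The Grhl2 locus therefore held peaks of both directions within 20 kb of each other.

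With Smad4 restored, most peaks of these loci were again higher in the liver, with Cdh1 the least uniform against the lungs. Against Lung_ON, 62 peaks were higher and 3 lower (background 17.6% and 18.2%), although the total fell to 37 without Liv_ON replicate 2, where the calls over all peaks fell from 24026 higher and 24863 lower to 10675 and 7792. Against Panc_ON, 84 were higher and 3 lower (background 27.1% and 32.2%), with a median log2 difference of 2.03. The Grhl2 start-site peak counted 644 and 722 in Liv_ON, 59.5, 30.7 and 32.7 in Lung_ON, and 33.8, 47.0 and 39.9 in Panc_ON, so that the liver exceeded the lungs by 4.09 ± 0.38 (adjusted p = 2.6e-05). At the Cdh1 and Krt18 start sites, the liver excess over the lungs was 0.50 ± 0.16 and 0.38 ± 0.14, below the size needed for a call. The other 8 start-site peaks were called higher in the liver in both states. Over the 10 Cdh1 peaks, 2 were higher and 1 lower in Liv_ON than in Lung_ON, with a median log2 difference of 0.48, where 6 were higher and 0 lower with Smad4 off. The lower one, Cdh1 +32.3 kb, singled out after its values were seen, counted 119 and 146 in Liv_ON against 159 to 256 in Lung_ON (-0.71 ± 0.31, adjusted p = 0.091).

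Lungs and pancreas differed at few peaks of these loci with Smad4 off, and more peaks passed the test with Smad4 restored; whether the difference itself changed between states is given below by the interaction terms. With Smad4 off, 10 peaks were higher in the lungs and 0 lower (background 6.59% and 10.7%), 6 at Grhl2 and 4 at Epcam. By unadjusted p under 0.05, 26 were higher and 1 lower (background, either direction, 27.5%), and edgeR and DESeq2 on the recovered reads called 13 and 15 higher and 0 lower. Epcam -10.1 kb counted 42.3, 92.4 and 50.8 in Lung_OFF against 10.2, 18.8 and 14.8 in Panc_OFF (1.97 ± 0.39, adjusted p = 0.0045). Grhl2 -40.3 kb counted 135, 163 and 109 against 59.8, 78.6 and 63.0 (0.99 ± 0.23, adjusted p = 0.010). The count was 5 without Panc_OFF replicate 2 and 6 without Panc_OFF replicate 3, where the higher calls over all peaks fell from 9006 to 4323 and 3645.

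With Smad4 restored, 38 peaks were higher in the lungs than in the pancreas and 0 lower (background 12.8% and 14.9%; 43 and 0 by unadjusted p under 0.05, where 35.7% of all peaks passed in either direction, with edgeR calling 37 and 0 and DESeq2 38 and 0). They comprised 8 at Grhl2, 7 at Epcam, all 6 at Krt19, 6 of 10 at Cdh1, 4 of 6 at Krt8, 3 of 4 at Krt18, 2 at Cldn7, and 1 each at Cldn4 and Ovol1. The start-site peak of Cdh1 counted 6231, 7341 and 6635 in Lung_ON against 3525, 3309 and 4060.0 in Panc_ON, a difference of 0.89 ± 0.15 (adjusted p = 0.00089). That of Krt8 counted 6454, 7024 and 6157 against 3838, 3179 and 4185 (0.82 ± 0.14, adjusted p = 0.00095), and those of Krt19 and Krt18 differed by 0.79 ± 0.15 (adjusted p = 0.0021) and 0.63 ± 0.12 (adjusted p = 0.0023; for Krt18 0.50 without Panc_ON replicate 2 and 0.57 with quantile normalisation, neither called). The groups did not overlap at these 4 peaks. The Ovol1 start site was called at 0.65 ± 0.23 (adjusted p = 0.054), a call lost without Panc_ON replicate 2 or 3 or Lung_ON replicate 2 or 3 (0.55 to 0.69) and with the median of other peaks within 5 Mb subtracted (0.31, adjusted p = 0.30), and those of Epcam, Cldn4, Cldn7, Esrp1 and Grhl2 were not, with differences of -0.03 to 0.27. Thus 5 of the 38 called peaks covered a start site, and the gene groups were not compared with each other by a test. Quantile normalisation, which shifted the median of all peaks by 0.11 in this comparison, called 25224 of all peaks higher and 19156 lower, where the fit reported here called 17550 and 20384. Fibroblast marker peaks moved the opposite way here too, 42 of 60 called lower in the lungs.

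**Figure D3:**
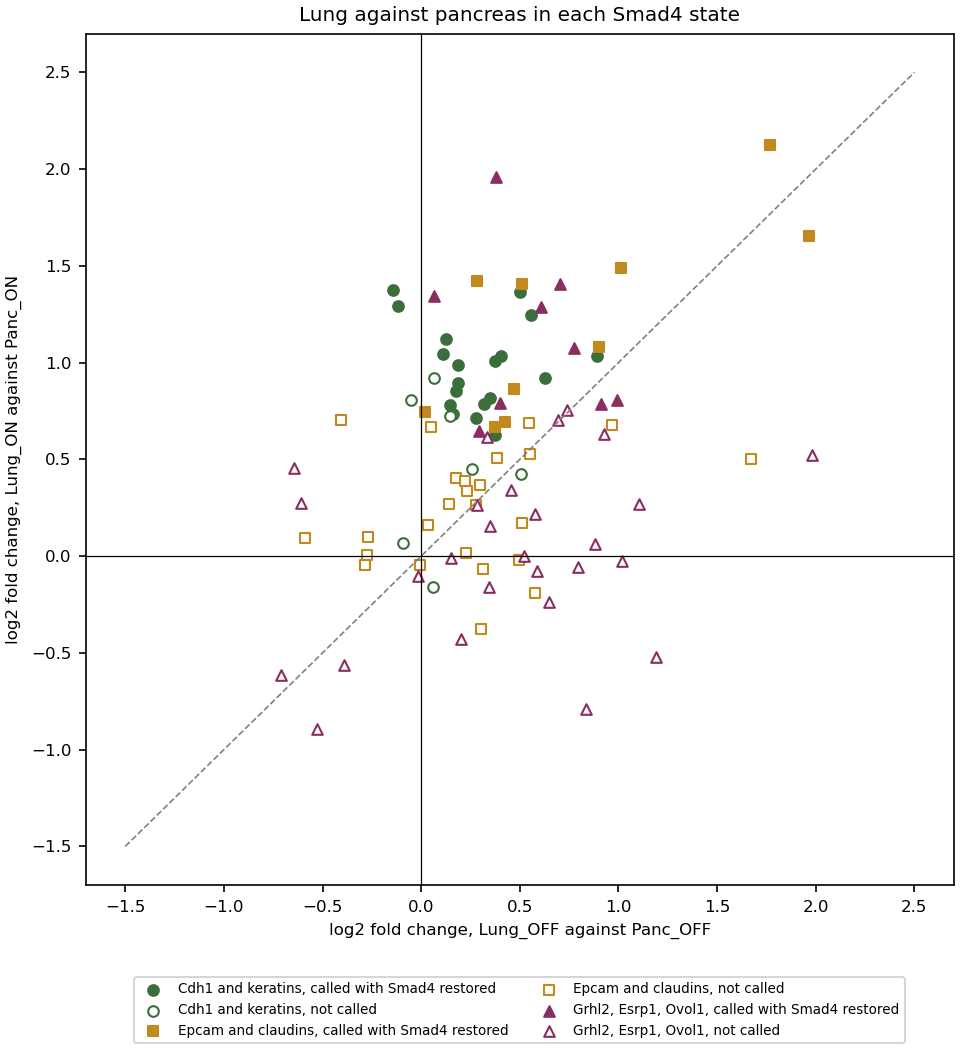
Log2 difference between lungs and pancreas with Smad4 off (horizontal axis) and with Smad4 restored (vertical axis) for the 97 peaks, coloured by gene role and filled where called with Smad4 restored, with the dashed line at equal values. Most Cdh1 and keratin peaks lie above the line, with the Cdh1 start site at 0.19 and 0.89, while Grhl2 peaks scatter to both sides.

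Restoration of Smad4 within the pancreas lowered 9 of the 97 peaks and raised 0 (background 3.06% lower and 0.364% higher). By unadjusted p under 0.05, 30 were lower and 1 higher (background, either direction, 16.9%), and edgeR and DESeq2 called 8 and 12 lower and 0 higher. The lowered peaks were 4 at Grhl2, 2 at Cdh1 and 1 each at Krt8, Krt18 and Krt19, and none covered a start site. Grhl2 +91.0 kb, in an intron, counted 17.8, 23.5 and 19.2 in Panc_ON against 70.0, 66.1 and 58.3 in Panc_OFF, a fall of 1.64 on the log2 scale (SE 0.29, adjusted p = 0.016). Cdh1 +29.1 kb, also intronic, counted 332, 322 and 297 against 752, 637 and 615 (-1.07 ± 0.20, adjusted p = 0.017). Grhl2 -48.5 kb counted 185, 183 and 242 against 483, 498 and 370.4 (-1.14 ± 0.23, adjusted p = 0.024). Groups did not overlap at these peaks, nor at Grhl2 -97.6 kb (-0.62 ± 0.15, adjusted p = 0.045) and Krt8 +23.5 kb (-0.78 ± 0.21, adjusted p = 0.065). The call at Grhl2 -48.5 kb was lost without Panc_OFF replicate 2 (-1.06). At Grhl2 -97.6 kb it was lost without Panc_OFF or Panc_ON replicate 1 or 2 (-0.63 to -0.56), and at Krt8 +23.5 kb without Panc_OFF replicate 1 or 2 or Panc_ON replicate 1 or 3 (-0.77 to -0.66).

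No start-site peak passed the test on restoration in the pancreas by limma, with 6 lower and 0 higher at an unadjusted p under 0.05, 0 called by edgeR and 1 by DESeq2. The closest were Krt8 (-0.49 ± 0.14, adjusted p = 0.081) and Cdh1 (-0.51 ± 0.15, adjusted p = 0.087), which met the p threshold and missed the required size. Grhl2 and Cldn4 had values of 0.45 ± 0.34 and 0.29 ± 0.25. The count of 9 changed with single libraries, being 2 without Panc_OFF replicate 2, 3 without Panc_OFF replicate 1 or Panc_ON replicate 1, and 5 without Panc_ON replicate 2. Over all peaks the 4177 lower calls fell to 443, 1184, 1505 and 1754 in these fits, in that order.

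**Figure D4:**
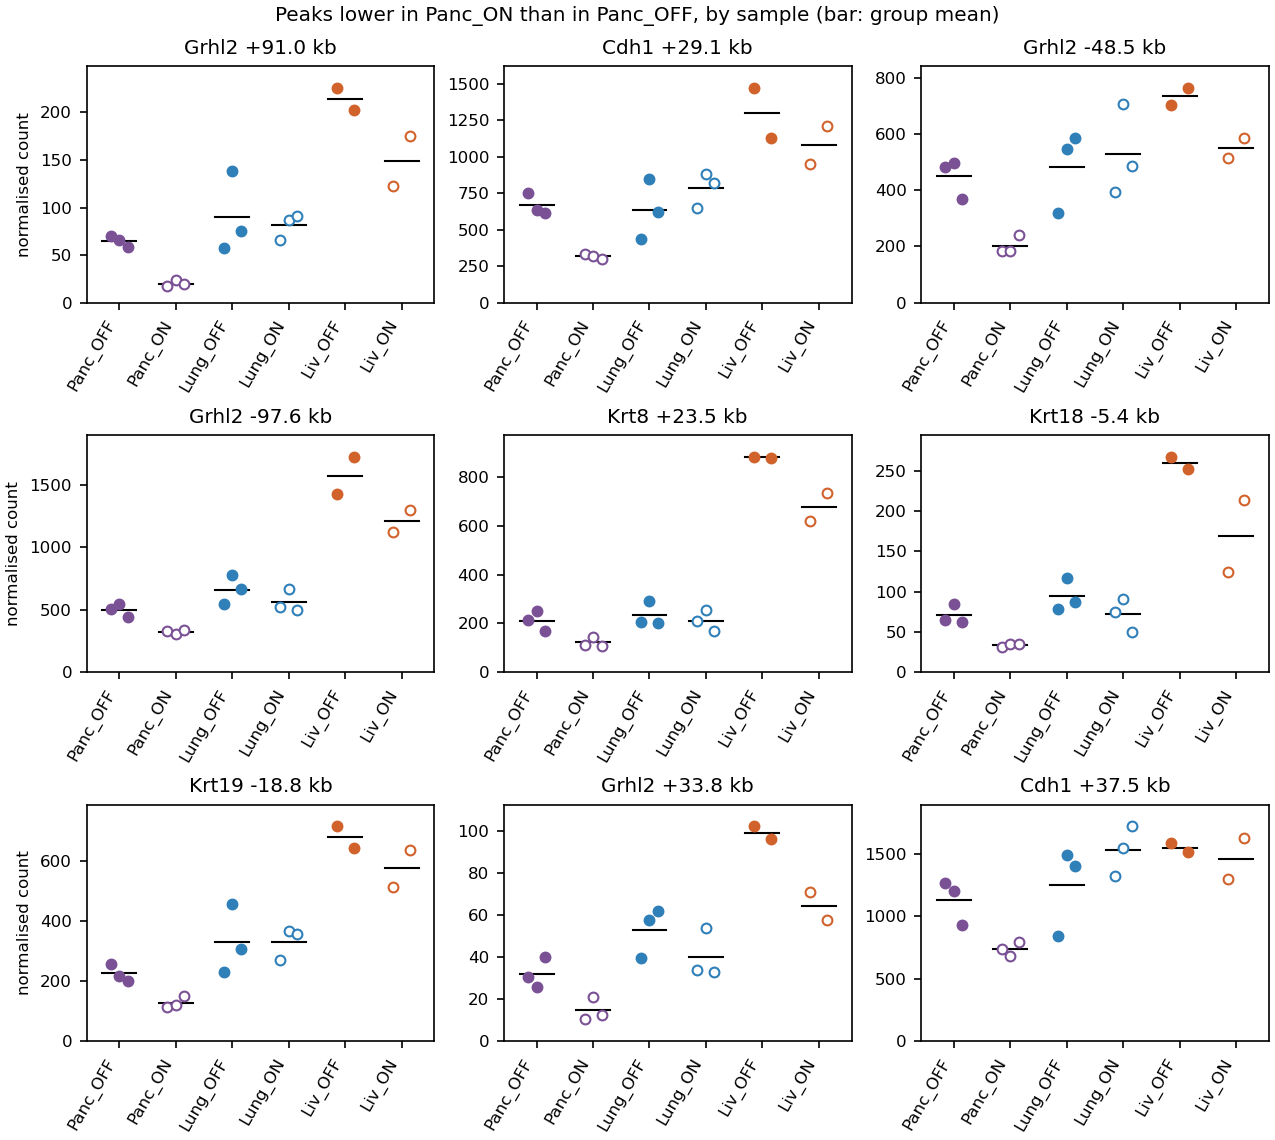
Normalised count by sample (linear axis from 0) for the 9 peaks lower in Panc_ON than in Panc_OFF, with pancreas in purple, lungs in blue and liver in orange, filled points for Smad4 off and open points for Smad4 restored, and a bar at each group mean. At Cdh1 +29.1 kb the Panc_ON samples sit at 297 to 332 below all others, and the lung samples of both states overlap between 436 and 884.

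In the lungs and the liver, 0 of the 97 peaks passed the test on restoration by limma, edgeR or DESeq2 (limma background, either direction, 0.00366% and 0.55%). At an unadjusted p under 0.05 there were 2 higher and 4 lower in the lungs (background, either direction, 7.11%) and 2 higher and 1 lower in the liver (12.1%). Cdh1 +29.1 kb counted 651, 884 and 817 in Lung_ON and 436, 849.8 and 624 in Lung_OFF, with overlap and a difference of 0.34 ± 0.20 (adjusted p = 0.79). The liver groups hold 2 samples each, which limits what this comparison could detect.

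Whether restoration acted differently between organs was tested by interaction terms. By limma 0 of the 97 peaks were called in any of the 3 organ pairs, where 0% of all peaks were called, and edgeR called 0. For lungs against pancreas, 21 peaks had an unadjusted p under 0.05 (18 higher and 3 lower, against 11% of all peaks), led by Cdh1 +29.1 kb at 1.41 ± 0.28 (adjusted p = 0.23), while liver against lungs had 2 (5.25% of all peaks) and liver against pancreas 3 (3.95%). DESeq2 called 8 for lungs against pancreas, 7 higher and 1 lower. No label pairs the samples by replicate number. A replicate block in the lungs was chosen after same-numbered lung samples were seen to deviate together in these data. With that block the interaction called 8 peaks, all higher. Of these, 5 were at Cdh1 including its start site (0.71 ± 0.15, adjusted p = 0.059). The others were Grhl2 +91.0 kb, Grhl2 -48.5 kb and Krt19 -8.4 kb. The interaction called 1 with a block in all organs and 16 without Lung_OFF replicate 2, of which 14 were higher and 2 lower. Calls over all 136630 peaks rose in the same fits, to 1736 higher and 649 lower with the block in the lungs, 194 and 54 with a block in all organs, 2607 and 1393 without Lung_OFF replicate 2, and 1576 and 674 of 136591 by DESeq2. A difference between organs in the effect of restoration therefore depended on the fit. Averaged over organs, 1 peak was higher, Cldn4 -10.6 kb (0.63 ± 0.22, adjusted p = 0.099), and 4 were lower, at Krt18, Cdh1 and Grhl2 (background 3.61% and 3%). None of these 5 was called without Liv_ON replicate 1, 2 peaks were called without Liv_OFF replicate 1 and 8 without Lung_OFF replicate 1, and the Cldn4 call was lost in 12 of the 16 fits that leave out 1 library.

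Other epithelial genes, in lists that leave out the 10, followed the organ difference less uniformly. From Liv_OFF to Lung_OFF, 69 of 130 peaks at tight junction and polarity genes were higher in the liver and 7 lower, 43 of 81 at desmosome and adherens genes with 8 lower, 44 of 62 at further keratin and surface genes with 3 lower, and 45 of 92 at further regulators with 19 lower. The pooled median log2 difference was 0.79, against 1.31 at the 10 loci. Of their 40 start-site peaks, 39 covered a start site and that of Ap1m2 was only the nearest peak. By the call, 34 of the 40 were higher in the liver and 0 lower, where 21.1% and 4.68% of all peaks covering a protein-coding start site were. Among the largest called differences were those of Rab25, an epithelial recycling GTPase (4.71 ± 0.63, adjusted p = 6.6e-05), Prss8, a membrane serine protease (2.39 ± 0.36, adjusted p = 0.00014), and Spint1, an inhibitor of such proteases (2.11 ± 0.25, adjusted p = 3.1e-05). With Smad4 restored, 19 of the 40 start-site peaks were higher in the lungs than in the pancreas and 1 lower, beside 5 of 10 and 0 at the 10 loci, where 7.57% and 4.46% of all peaks covering a protein-coding start site were. Restoration in the pancreas lowered 11 of the 40 and 0 of the 10, against 2.35% of all such peaks.

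**Figure D5:**
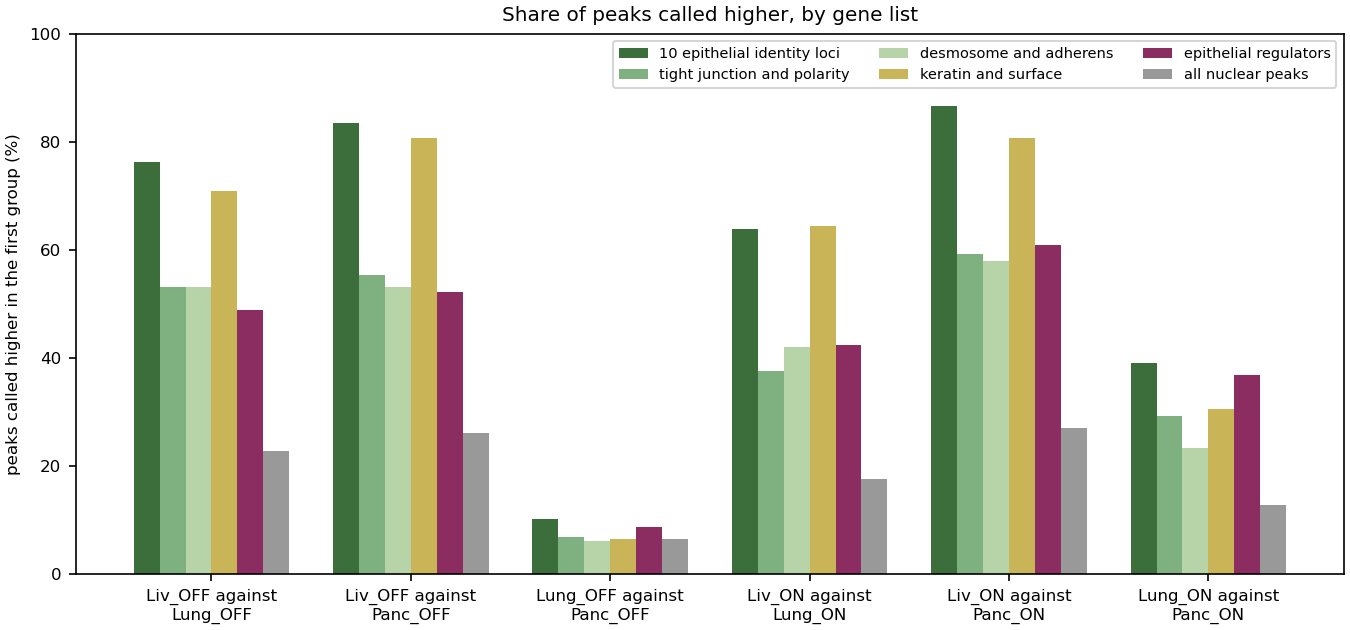
Share of peaks called higher in the first group (%, bars from 0) for the 10 epithelial loci, 4 lists of other epithelial genes and all nuclear peaks, in 6 organ comparisons. The 10 loci reach 76.3% in liver against lungs and 83.5% in liver against pancreas with Smad4 off, against 22.9% and 26.2% of all peaks, and 10.3% against 6.59% in lungs against pancreas.

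Peaks at genes of other cell types differed by list between liver and lungs with Smad4 off. The background was 22.9% higher and 26.8% lower. Of 53 peaks at hepatocyte genes, 18 were higher and 13 lower (34% and 24.5%). Lung epithelial genes had 10 of 35 higher and 6 lower (28.6% and 17.1%). Acinar genes had 6 of 23 higher and 6 lower (26.1% each), and leukocyte genes 3 of 15 and 5 (20% and 33.3%). Endothelial genes leaned to lower, with 5 of 45 higher and 22 lower (11.1% and 48.9%). Fibroblast genes did too, with 2 of 60 higher and 28 lower (3.33% and 46.7%). Summed hepatocyte marker levels were 5927 to 7083 in the liver samples, 5525 to 6451 in the lung samples and 5248 to 6036 in the pancreatic samples. Sftpc, Prss1, Cd3e and Serpina1a were among 8 marker genes to which no peak was assigned.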

How the data were processed

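ATAC-seq libraries from 16 sorted tumour samples in 6 groups were used. Per the labels and the study's methods, the authors used Trim Galore and cutadapt for trimming, Bowtie2 for alignment to mm10 and MACS2 for peaks, merged peaks within 500 bases into an atlas, counted reads with featureCounts and divided them by DESeq2 size factors. The deposited values are this normalised signal, and 100% of them were whole reads after undoing the size factors (tolerance 0.001 reads). Whether the authors shifted reads or filtered the atlas is not given in the sources used here. By the study's account, each sample came from a separate mouse. Which cell line each came from is not given, so p-values measure only the spread between these samples.

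Of 136631 rows, the mitochondrial one was left out. Peaks were assigned with GENCODE vM21 basic (107868 within 100 kb of a protein-coding start site). The log2(normalised count + 1) values of all 6 groups were fitted with limma 3.58.1 (trend, robust; R 4.3.3), with Benjamini-Hochberg adjustment over 136630 peaks. Size and p thresholds for a call were 0.58 and 0.1. edgeR 4.0.16 and DESeq2 1.42.0 on recovered reads were alternatives; edgeR called 31031 peaks higher and 36850 lower in Liv_OFF against Lung_OFF. The fit was tested on simulated data with a large change planted in Liv_OFF alone, in peaks above a minimum mean count. That test does not cover smaller changes, peaks with few reads or differences between cell lines. Members, gene lists and motifs were chosen with earlier results of these data known. Besides all 10 start-site peaks, the text names, by comparison, the called peaks of smallest p whose replicates do not overlap (up to 5 per direction), other epithelial genes with the largest called start-site differences (up to 4; 1 is not reported here), and peaks said to be singled out. The labels do not pair samples by number. Same-numbered samples deviated together in the lungs (correlations 0.49, 0.12 and 0.21) and not in the pancreas (-0.33, 0.03 and -0.33) or the liver (0.08). A block for the lungs alone was added on that ground, so it was chosen from these same values.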

Additional observations from a re-analysis of the deposited data

How the results depend on the processing

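Organ differences at the 10 loci kept their direction in every count of calls, and the number of calls changed with distance, with thresholds and with single libraries. In the order liver against lungs, liver against pancreas and lungs against pancreas with Smad4 off, the same with Smad4 restored, restoration in the pancreas and the organ average, peaks within 20 kb alone gave 45, 49, 4, 40, 50, 19, 2 and 3 calls, since fewer peaks were counted. Thresholds of 1 and 0.05 gave 2 (lungs against pancreas, Smad4 off), 19 (Smad4 restored), 3 (restoration in the pancreas) and 0 (average). Removing the neighbourhood median gave 16 for lungs against pancreas with Smad4 off, GC correction 5 for restoration in the pancreas, and a pseudocount of 10 gave 2 for the average; the cause was not tested. The interaction between organs had 1 call with a replicate block, 1 with GC correction and replicate block, 8 with a replicate block in the lungs only (chosen after seeing the data) and 8 by DESeq2. The block changed no other count of calls by over 1.5 times. Leaving out each library in turn gave 65 to 76, 75 to 83, 5 to 14, 37 to 67, 75 to 86 and 32 to 41 calls for the organ comparisons in that order, 2 to 12 for restoration in the pancreas, 0 in liver and lungs, 0 to 8 for the average and 0 to 16 for the interaction. Among start-site differences, Grhl2 between lungs and pancreas with Smad4 restored turned to 0.22 with quantile normalisation, 0.14 with the neighbourhood median removed and 0.023 by both edgeR and DESeq2, and Cldn4 with Smad4 off to -0.049 and -0.033 with the former 2. Leaving out libraries turned the same Grhl2 value (-0.32 to 0.14) and Cldn7 (-0.057 to 0.34) with Smad4 restored, Epcam (-0.077 to 0.34), Cldn4 (-0.11 to 0.21), the Cdh1 start site (-0.019 to 0.38) and Cdh1 -3.8 kb (-0.12 to 0.35) with Smad4 off, and Esrp1 on restoration in the pancreas (-0.44 to 0.0022), none of them called. At Krt18 the liver excess over the lungs was 0.55 with TMM factors, 0.20 with quantile normalisation, 0.56 with GC correction and 0.30 with the neighbourhood removed. Peaks with few reads, such as Grhl2 +31.5 kb, have the least precision.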
